A study of Homo sapiens with 18 samples.

Results

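The genes described here are the cytokines IL6, IL11, LIF and IL24, the receptor chains IL6R, IL6ST, LIFR and OSMR, the kinase JAK1 and the transcription factor STAT3, in PC3 cells depleted of an Elongin subunit or exposed to a BC-box peptide. They were chosen by name, as 10 of the 20365 genes in the deposited tables, and all 10 were found. Of these, 9 passed the filter on low values in both experiments, and STAT3 did not.

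Cytokines of the IL-6 family signal through receptor complexes that contain gp130, the protein encoded by IL6ST. IL-6 and IL-11 bind their own receptor chain before joining gp130, whereas LIF uses LIFR together with gp130, and oncostatin M uses gp130 with OSMR or LIFR. Ligand binding activates JAK kinases held on the receptors, JAK1 foremost, and these phosphorylate STAT3, which enters the nucleus, with SOCS3 as an induced inhibitor. IL-24 belongs to the IL-10 family and does not use gp130: it binds IL20RB paired with IL20RA or IL22RA1, and it too can act through STAT3. PC3, an established human prostate cancer line, is known as a line that lacks STAT3.

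Elongin B or Elongin C was depleted by shRNA delivered with lentivirus, giving EloB KD and EloC KD cells, which were compared with Control KD cells, all in medium with 10% serum. Elongin B and Elongin C together bridge cullin ubiquitin ligases to substrate receptors that carry a BC-box. In a separate experiment PC3 cells received the WT peptide, the Mutant peptide or the Scrambled peptide, each at 12500 nM for 24 h with serum at 2.5%. Each of the 6 groups had 3 libraries of total RNA, made with a stranded mRNA kit. The labels name 1 cell line and give neither the hairpin sequences nor the number of hairpins for each gene. They number the replicates and do not tell whether these came from separate cultures, so the p-values measure the spread between these libraries, which may be technical.

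The knockdown libraries held 40288528 to 57225737 counted reads and the peptide libraries 31671205 to 34699856. The targeted genes were low in the libraries labelled for them: ELOB had 478 to 596 normalised counts in EloB KD and 2626 to 4950 in Control KD, and ELOC had 492 to 558 in EloC KD and 4097 to 4797 in Control KD. In the peptide experiment the replicate 2 libraries of all groups stood apart from replicates 1 and 3. Epithelial markers were expressed in all groups, and the prostate luminal marker KLK3 had no read in any of the 18 libraries. Of the leukocyte markers, LYZ had 1197 reads over the 18 libraries, CD14 151, PTPRC 55 and CD3E 8.

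The sequences upstream of 3 of the cytokine genes are given because IL6 and IL24 rose together in EloC KD, while IL11 passed the test in neither knockdown. They are RefSeq sequences of build GRCh38.p14, ending just before the RefSeq start. For IL6 the last 53 bases of the window are left out because the GENCODE annotation begins an exon there. Capitals mark matches to any of 5 motifs searched on both strands: GGGA and TTCC with any 2 bases between them (NF-kB), TGANTCA (AP-1), TTGCNNAA (C/EBP), TGACGTCA (CRE) and TTCNNNGAA (STAT). IL6 lies on the plus strand at chr7:22726950-22727146, IL24 on the plus strand at chr1:206897193-206897442 and IL11 on the minus strand at chr19:55370464-55370713.
IL6: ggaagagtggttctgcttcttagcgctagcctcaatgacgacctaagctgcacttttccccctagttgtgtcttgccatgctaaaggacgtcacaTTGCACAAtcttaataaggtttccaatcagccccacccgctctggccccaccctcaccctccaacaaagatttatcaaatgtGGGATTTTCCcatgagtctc
IL24: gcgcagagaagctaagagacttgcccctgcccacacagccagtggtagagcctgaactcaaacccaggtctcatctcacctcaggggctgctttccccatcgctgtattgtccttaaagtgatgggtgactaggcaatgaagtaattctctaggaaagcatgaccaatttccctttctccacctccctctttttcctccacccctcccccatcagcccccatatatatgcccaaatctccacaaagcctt
IL11: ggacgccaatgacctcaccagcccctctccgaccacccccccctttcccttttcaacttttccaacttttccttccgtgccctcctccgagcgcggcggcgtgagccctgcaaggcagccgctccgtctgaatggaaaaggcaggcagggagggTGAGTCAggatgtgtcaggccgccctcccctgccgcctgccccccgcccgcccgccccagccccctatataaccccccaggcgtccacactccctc
The IL6 window held an NF-kB match at bases -73 to -64 from the RefSeq start and a C/EBP match at -155 to -148, and the 2 do not overlap. The IL11 window held an AP-1 match at -96 to -90, and the IL24 window held no match to these letters. Among the 9 genes with a RefSeq entry, LIFR had a STAT match at -165 to -157 and OSMR a C/EBP match at -73 to -66 in their 250 bases. Of 35116 upstream windows of the same length, 1.40% held the NF-kB motif, 6.57% the AP-1 motif, 9.05% the C/EBP motif, 1.65% the CRE motif and 6.57% the STAT motif. A match describes letters only, and binding was not measured.

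Per kilobase of annotated exon, JAK1, LIF and the shared chain IL6ST were the 3 most abundant transcripts of the set, and IL6 and IL24 were the least abundant of the 9 in Control KD cells. In Control KD, normalised counts per kilobase were 1583 ± 199 for JAK1, 1074 ± 83.4 for LIF, 919 ± 68.7 for IL6ST, 492 ± 36.0 for LIFR and 465 ± 37.6 for OSMR (SD, n = 3). They were lower for IL6R (271 ± 35.0), IL11 (112 ± 21.7), IL24 (14.0 ± 3.04) and IL6 (6.82 ± 1.14). LIFR and OSMR differed by less than their spread. In EloC KD the order differed: IL6ST (1682 ± 341) lay within the spread of JAK1 (1857 ± 331), and IL24 (499 ± 246) lay within that of OSMR (529 ± 45.2). In EloB KD the lowest levels were again those of IL24 (13.4 ± 2.91) and IL6 (11.9 ± 3.59), which differed by less than their spread. In Scrambled peptide cells IL24 had 89.5 ± 16.0, IL11 78.5 ± 14.2 and IL6 30.6 ± 5.25 normalised counts per kilobase, with IL24 and IL11 closer than their spread, on a scale set separately from that of the knockdown experiment. The figure of levels shows each gene in every library.

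**Figure D1:**
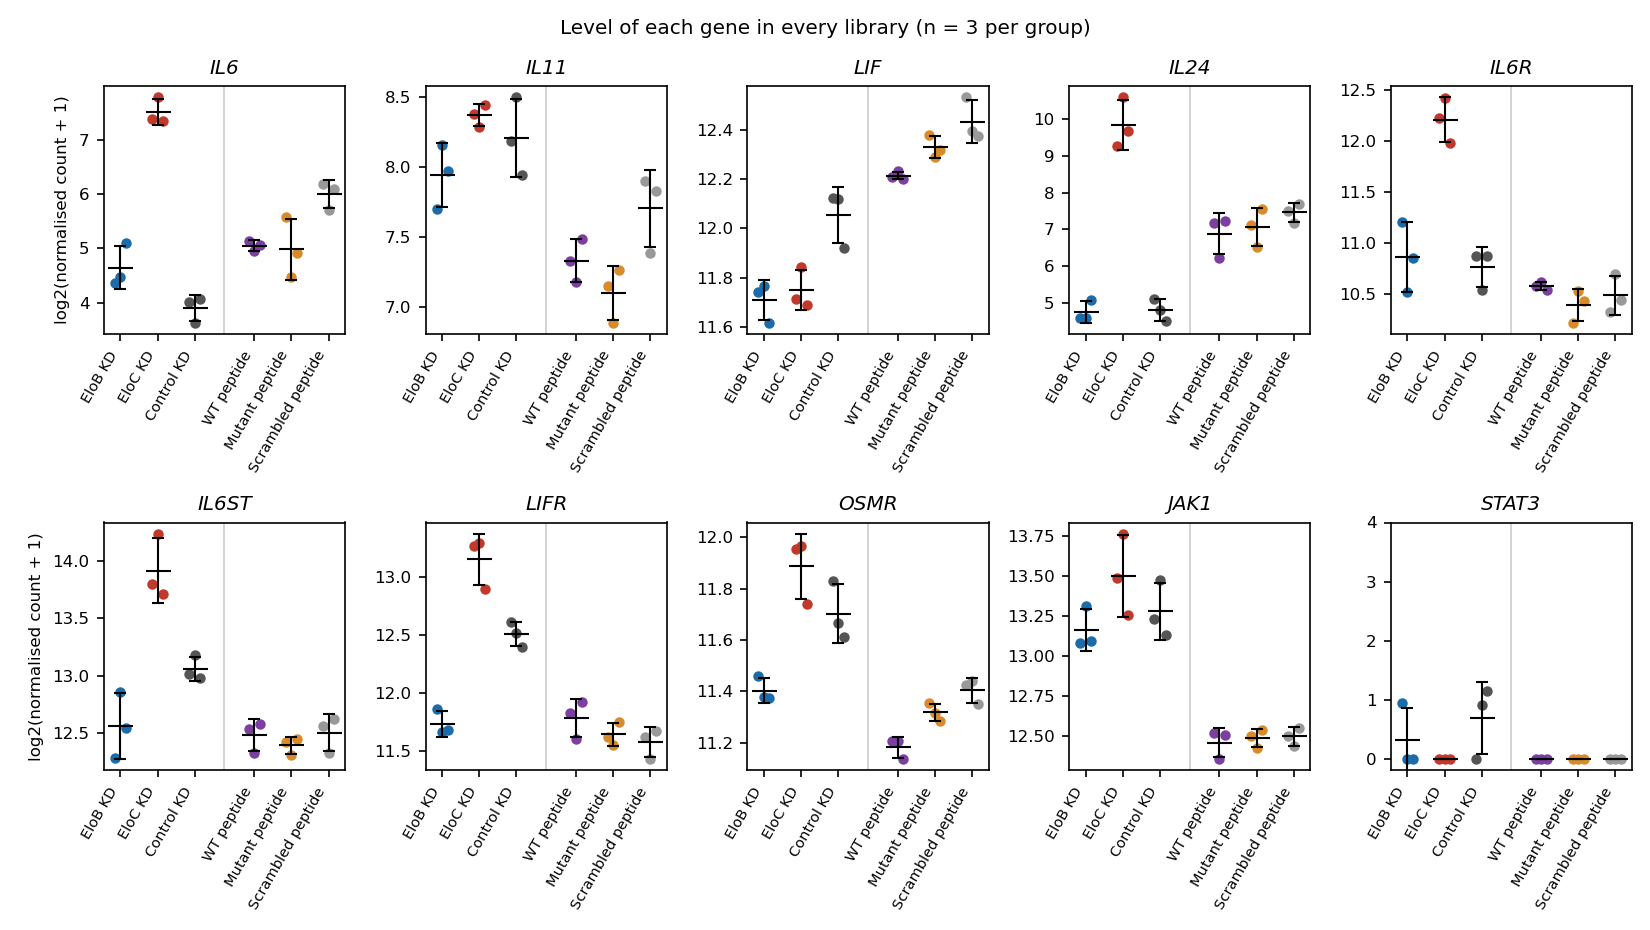
Level of each gene as log2 of the normalised count plus 1 (vertical axis) in the 3 libraries of each group (horizontal axis); points are libraries, black bars the mean and SD, and the grey line separates the 2 experiments, which were normalised apart. IL6, IL24, IL6R, IL6ST and LIFR are higher in all EloC KD libraries than in any EloB KD or Control KD library, and STAT3 is at or near 0 in every group. Over all tested genes, EloC KD does not overlap Control KD for 53.7% and EloB KD for 56.3%, in either direction.

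STAT3 transcripts were all but absent. STAT3 (chromosome 17, 42313324 to 42388568, minus strand, GRCh38) was counted with 1 read in EloB KD replicate 1, with none in EloC KD, with 1 read each in Control KD replicates 2 and 3, and with none in any peptide library. With at most 1 read in any library, it lay under the floor of 3 reads per library, so no fold change is given, and any difference between groups was not detectable at this depth. The genes around it were as low. A run of 11 consecutive coding genes, DHX58 to CAVIN1, spanning 322 kb (42101404 to 42423517), had at most 7 reads each over the 18 libraries, and 7 of the 11 had none. The run includes STAT5A (no read) and STAT5B (1 read), the 2 STAT5 genes, and RAB5C, an endosomal GTPase gene widely expressed in human cells (no read). For comparison, 20.8% of all 20365 genes had at most 10 reads over the 18 libraries. Beyond the run, C17orf113 had 1020 reads on one side. On the other side ATP6V0A1 had 160 reads, NAGLU 7869 and COASY, a coenzyme A synthesis gene, 71261. Genomic copy number was not measured in these libraries.

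**Figure D2:**
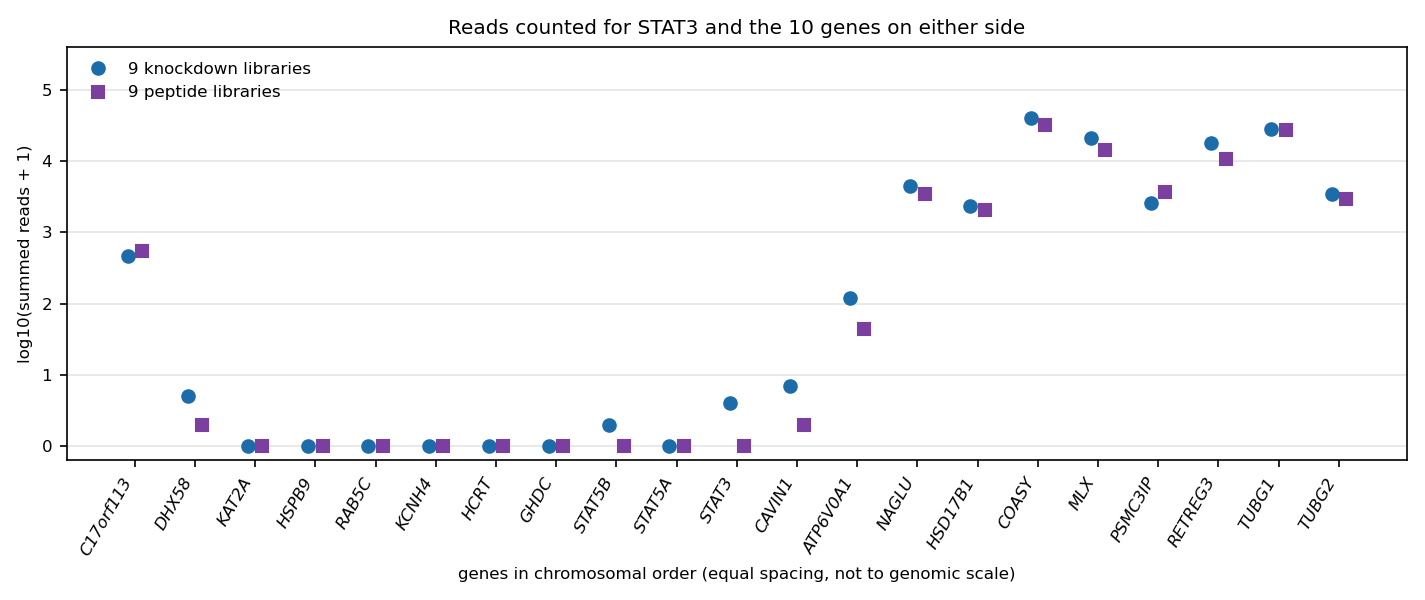
Reads summed over the 9 knockdown libraries and over the 9 peptide libraries, as log10 of the sum plus 1 (vertical axis), for STAT3 and the 10 coding genes on either side in chromosomal order (horizontal axis, equal spacing). The 11 genes from DHX58 to CAVIN1 lie at or near 0, and COASY to their right has 71261 reads in all.

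In the knockdown experiment the 2 depletions gave different patterns. IL6, IL24, IL6R, IL6ST and LIFR rose and LIF fell in EloC KD, while LIF, LIFR and OSMR fell and none of the 9 genes rose in EloB KD. In EloB KD 3 of the 9 tested genes passed an adjusted p of 0.05 in limma, all lower, where 20.5% of the 13764 genes tested passed in either direction. In EloC KD 6 of 9 passed, 5 higher and 1 lower, where 42.5% of all genes passed. Between the knockdowns 6 of 9 were lower in EloB KD than in EloC KD, against 46.1% of all genes. These shares put the counts beside a transcriptome in which very many genes moved, and nothing is called particular to the family from them. A fit blocked on the replicate number called 5 genes in EloB KD (1 higher, 4 lower; 36.3% of all genes), 8 in EloC KD (7 higher, 1 lower; 57.0%) and 8 between the knockdowns (all lower in EloB KD; 59.4%). The libraries of the 2 groups did not overlap for 5 of the 9 genes in EloB KD against Control KD, beside 38.4% of all genes tested. They did not overlap for 6 in EloC KD against Control KD, beside 53.7%, and for 7 between the knockdowns, beside 56.3%. Both comparisons with a control use the same Control KD libraries. In these bulk libraries more transcript per cell and more cells that express a gene cannot be told apart.

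Among the ligands, IL6 (chromosome 7, 22725884 to 22732002) had 19.6, 21.1 and 33.1 normalised counts in the EloB KD libraries, 166, 219 and 161 in those of EloC KD and 15.1, 11.4 and 15.8 in those of Control KD. Every EloC KD library exceeded every other library by a wide margin, and the EloB KD libraries all lay above Control KD. IL6 encodes the founding cytokine of the family. It was 12.1-fold higher in EloC KD than in Control KD (log2 3.60 ± 0.27 SE, adjusted p 1.32e-05 in limma), which ranked 28 from the top of 13764 genes. In EloB KD the log2 fold change over Control KD was 0.74 ± 0.27 with an adjusted p of 0.0797 in limma, and with the replicate block the adjusted p was 0.0457 (0.0457 to 0.351 over 16 alternatives). The Control KD values rest on 13 to 16 reads per library and those of EloB KD on 21 to 35.

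IL24 (chromosome 1, 206897443 to 206904139), which encodes a cytokine first described in differentiating melanoma cells, had 23.3, 23.1 and 33.1 normalised counts in the EloB KD libraries, 609, 1536 and 819.9 in those of EloC KD and 33.9, 27.2 and 21.9 in those of Control KD. The EloC KD libraries stood far above the rest but spread widely among themselves, and those of EloB KD and Control KD overlapped. The change in EloC KD over Control KD, a log2 of 5.02 ± 0.32, ranked 6 from the top of 13764 genes (adjusted p 5.97e-06 in limma). In EloB KD the log2 fold change over Control KD was -0.06, with a 95% interval of -0.78 to 0.66, so that a change of the size seen in EloC KD lies outside it. The difference between EloB KD and EloC KD ranked 2 from the bottom of all genes.

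LIF and IL11 did not follow IL6 and IL24. LIF, the ligand of LIFR and the most abundant cytokine transcript of the set (chromosome 22, 30240447 to 30246851), had 3425, 3486 and 3143 normalised counts in EloB KD and 3360.5, 3674 and 3306 in EloC KD, with 4464, 4445 and 3881 in the Control KD libraries. All 6 knockdown libraries lay below all Control KD libraries. LIF was 1.27-fold lower in EloB KD (log2 -0.35 ± 0.09, adjusted p 0.0218 in limma) and 1.24-fold lower in EloC KD (-0.31 ± 0.09, adjusted p 0.0194). Leaving out Control KD replicate 1 gave adjusted p-values of 0.0669 for EloB KD and 0.0599 for EloC KD in limma, and leaving out Control KD replicate 2 gave 0.0809 and 0.0724. The EloB KD call was also lost without EloB KD replicate 3 (0.0790) and under quantile scaling (0.0511), and the EloC KD call without EloC KD replicate 1 (0.0593) or 3 (0.0623). IL11, which encodes a gp130 cytokine (chromosome 19, 55364389 to 55370463), had 207 to 284 normalised counts in EloB KD and 311 to 347 in EloC KD, with 245 to 360.0 in the Control KD libraries. Its log2 fold changes over Control KD, -0.27 (95% interval -0.65 to 0.12) in EloB KD and 0.16 (-0.23 to 0.55) in EloC KD, did not pass. EloB KD and EloC KD libraries did not overlap for IL11. The log2 difference was -0.43 (adjusted p 0.0676 in limma and 0.0322 with the replicate block, 0.0241 to 0.208 over 16 alternatives). It also passed in limma under quantile scaling (0.0241) and without EloB KD replicate 2 (0.0480).

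Of the receptor chains, 3 of 4 rose in EloC KD, where 21.3% of all genes were higher. IL6R, the ligand-binding chain for IL-6 (chromosome 1, 154405193 to 154469450), had 2362, 1472 and 1848 normalised counts in the EloB KD libraries, 4766, 5474 and 4045 in those of EloC KD and 1877, 1486 and 1877 in those of Control KD. EloC KD lay above both other groups, which overlapped. IL6R was 2.72-fold higher in EloC KD (log2 1.44 ± 0.18, adjusted p 0.000150 in limma), and in EloB KD the log2 fold change was 0.10 with a 95% interval of -0.29 to 0.49.

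IL6ST, the signalling chain that all these receptors except that of IL-24 share (chromosome 5, 55935095 to 55994993), had 4995, 7431 and 5983 normalised counts in the EloB KD libraries, 14267, 19245 and 13364 in those of EloC KD and 8284, 9266 and 8068 in those of Control KD. The 3 groups did not overlap, with EloB KD lowest and EloC KD highest. IL6ST was 1.81-fold higher in EloC KD than in Control KD (log2 0.86 ± 0.16, adjusted p 0.00186 in limma). In EloB KD the log2 fold change was -0.49 ± 0.16 with an adjusted p of 0.0544 in limma, and the replicate block gave 0.00237 (0.00237 to 0.173 over 16 alternatives). It also passed in DESeq2 (0.0337), and in limma with only the 6 libraries compared (0.0458) and without EloB KD replicate 2 (0.0249). No other alternative gave a call.

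LIFR and OSMR, the chains that pair with gp130 for LIF and oncostatin M, both lie on chromosome 5 (38474963 to 38608354 and 38845858 to 38945596). LIFR had 3718, 3241 and 3284 normalised counts in EloB KD and 9881, 10008 and 7646 in EloC KD, with 6260.1, 5851 and 5406 in the Control KD libraries. The 3 groups were again fully apart. LIFR was 1.71-fold lower in EloB KD (log2 -0.77 ± 0.12, adjusted p 0.00145 in limma) and 1.56-fold higher in EloC KD (0.64 ± 0.12, adjusted p 0.00142), and it passed in opposite directions in all 16 alternatives. OSMR had 2813, 2658 and 2651 normalised counts in EloB KD and 3969, 3999 and 3423 in EloC KD, with 3643, 3246 and 3128 in the Control KD libraries. EloB KD lay below both other groups, and EloC KD and Control KD overlapped. OSMR was lower in EloB KD (log2 -0.30 ± 0.09, adjusted p 0.0463 in limma), but leaving out any single library of EloB KD or Control KD raised that adjusted p to between 0.0510 and 0.141. In EloC KD its log2 fold change was 0.18 ± 0.09 (adjusted p 0.138 in limma and 0.0465 with the replicate block; 0.0465 to 0.323 over 16 alternatives). OSMR shares 229 of 7174 exon bases with RICTOR on the other strand, and whether reads were counted by strand is not given in the sources used here.

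JAK1, the main kinase of these receptors (chromosome 1, 64833229 to 64966504), had 8653 to 10174 normalised counts in EloB KD and 9769 to 13936 in EloC KD, with 8978 to 11398 in the Control KD libraries. All 3 groups overlapped. Its log2 fold changes over Control KD were -0.12 (95% interval -0.42 to 0.19) in EloB KD and 0.22 (-0.08 to 0.53) in EloC KD, neither past the threshold in limma. With the replicate block JAK1 was higher in EloC KD (adjusted p 0.0222; 0.0222 to 0.626 over 16 alternatives).

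Set directly against each other, EloB KD was lower than EloC KD for every receptor chain, where 23.8% of all genes were lower. The log2 differences were -1.42 ± 0.12 for LIFR, -1.35 ± 0.16 for IL6ST, -1.35 ± 0.18 for IL6R and -0.48 ± 0.09 for OSMR, with adjusted p-values of 1.29e-05, 0.000105, 0.000171 and 0.00194 in limma. For LIF the difference was -0.04, with a 95% interval of -0.24 to 0.16. JAK1 was lower with the replicate block (log2 -0.34, adjusted p 0.0634 in limma without it and 0.00218 with it, 0.00218 to 0.230 over 16 alternatives). It also passed in DESeq2 (0.0462) and in limma without EloC KD replicate 3 (0.0206). The authors' deposited tables call 4 of the 9 genes lower in EloB KD, 5 higher and 1 lower in EloC KD, and 6 lower in EloB KD than in EloC KD. For comparison, DESeq2 run here called 25.1%, 45.6% and 48.9% of all genes in these comparisons, in either direction.

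**Figure D3:**
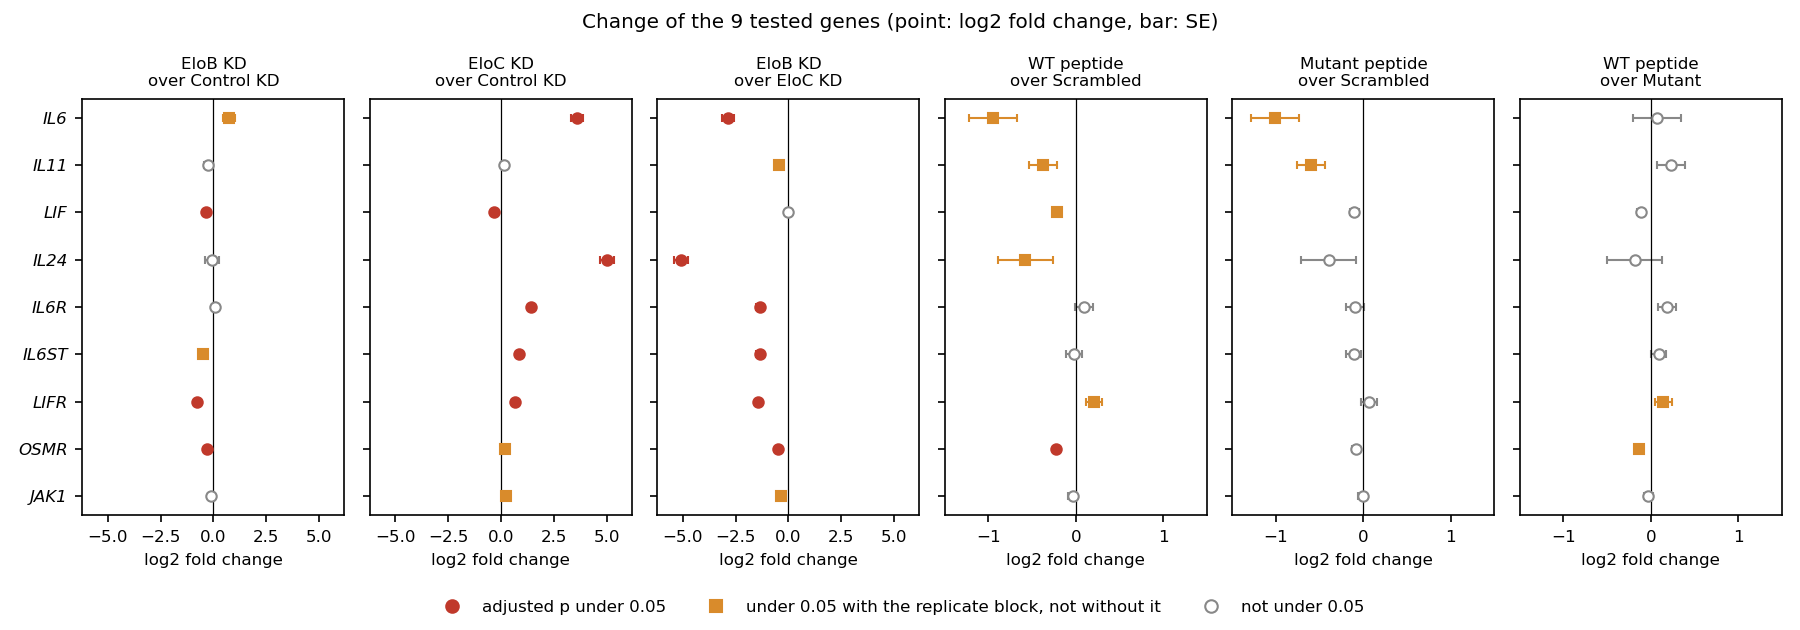
Log2 fold change (horizontal axis, points) with its standard error (bars) for the 9 tested genes (vertical axis) in the 6 comparisons, 3 libraries per group; the peptide panels have a narrower axis. Filled red circles have an adjusted p under 0.05 in limma, orange squares pass in limma with the replicate block and not without it; IL6 and IL24 are 3.60 and 5.02 higher in EloC KD, and the receptor chains lie to the left in EloB KD against EloC KD.

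Markers of other tissues moved in the same samples. In EloC KD the summed level of 5 fibroblast markers was 2089 to 2630 normalised counts and in EloB KD it was 600.3 to 951, with 659 to 888 in the Control KD libraries. Of the 4 tested, COL1A1 (log2 1.99) and LUM (1.82) rose in EloC KD and COL1A2 (-0.70) and PDGFRB (-1.09) fell, while DCN had 68 reads over all 18 libraries. The summed level of 5 epithelial markers was 25525 to 29737 in EloB KD and 20646 to 25164 in EloC KD, with 29883 to 38746 in the Control KD libraries. Of these, 4 of 5 fell in EloC KD, where 21.2% of all genes were lower, among them the adhesion genes EPCAM (-1.76) and CDH1 (-2.48). In EloB KD, where 11.2% of all genes were lower, 1 of 5 epithelial markers fell, KRT19 (-0.53), and 2 of 4 fibroblast markers, COL1A2 (-0.83) and PDGFRB (-1.66). The 5 endothelial markers summed to 2930 to 3994 in EloB KD and 2750.5 to 3946 in EloC KD, with 3593 to 5744 in the Control KD libraries. Over the 18 libraries KDR had 30529 reads, PECAM1 23627, CDH5 124 and VWF 76, and of the 4 tested KDR fell in EloB KD (log2 -1.26, adjusted p 0.0303 in limma) and none passed in EloC KD. The 5 leukocyte markers summed to 65.3 to 136 in EloB KD and 61.1 to 84.2 in EloC KD, with 121.7 to 146 in the Control KD libraries, and LYZ fell in EloC KD (-0.98, adjusted p 0.0490). The part of these shifts in the changes of the cytokine and receptor genes was not tested.

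The other genes of the pathway were read from 6 lists. Further members of the IL-6 family had 3 higher and 1 lower of 7 tested in EloC KD in limma, beside 42.5% of all genes called. In EloB KD 0 of 7 passed in limma, beside 20.5% of all genes, and 2 with the replicate block, beside 36.3%. Their median log2 fold change was 0.26 in EloC KD and 0.05 in EloB KD, against 0.01 and 0.00 over all genes. IL31RA, a receptor chain whose gene neighbours IL6ST, was higher in EloC KD (log2 0.66 ± 0.14, adjusted p 0.00343 in limma), as were the ligand genes CLCF1 (0.40 ± 0.11) and CNTF (0.78 ± 0.19), while CTF1, encoding cardiotrophin-1, was lower (-0.75 ± 0.23). CNTF overlaps a readthrough gene and CLCF1 overlaps RAD9A, so their counts are uncertain. OSM, the ligand of OSMR, had 17 reads over all 18 libraries and was not tested.

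The receptors of IL-24 moved in both directions in EloC KD. IL20RA, which encodes one of the 2 alternative partner chains, had 88.1, 56.8 and 75.8 normalised counts in the EloC KD libraries and 263, 235 and 237 in those of Control KD. It fell there by 1.74 ± 0.20 on the log2 scale (adjusted p 0.000111 in limma). The other partner IL22RA1 (log2 0.96 ± 0.15) and the common chain IL20RB (0.96 ± 0.21) rose. IL20RB overlaps NCK1, so its count is uncertain. In EloB KD 0 of the 3 passed in limma or with the replicate block, where 20.5% and 36.3% of all genes passed. The related ligands had few reads over the 18 libraries, 57 for IL20, 39 for IL22 and 1 each for IL10 and IL19.

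Of 7 other JAK and STAT genes tested, 2 were lower and none higher in EloC KD, beside 42.5% of all genes called. Among the 2 was JAK3, a kinase gene of lymphoid cytokine receptors (log2 -0.94 ± 0.18, adjusted p 0.00191 in limma). The replicate block gave 2 higher and 3 lower in EloC KD, beside 57.0% of all genes called. In EloB KD 0 of 7 passed in limma (20.5% of all genes called), and 1 was lower with the block (36.3% of all genes called). Among 15 inhibitors and adaptors of gp130 signalling, 5 were higher and 3 lower in EloC KD, beside 42.5% of all genes called. In EloB KD 2 were lower, beside 20.5% of all genes called. Nothing is read about the list from these counts. SOCS3, the feedback inhibitor that binds gp130, had 659.7, 498 and 547 normalised counts in the EloB KD libraries, 1257, 1432 and 1517 in those of EloC KD and 751, 702 and 965 in those of Control KD. The groups did not overlap. SOCS3 was higher in EloC KD (log2 0.81 ± 0.15, adjusted p 0.00180 in limma) and lower in EloB KD (-0.50 ± 0.15, adjusted p 0.0408). The phosphatase genes PTPN11 (-0.78 ± 0.10) and PTPN6 (-0.69 ± 0.12) fell in EloC KD and the adaptor gene GRB2 (0.56 ± 0.08) rose. PTPN11 overlaps RPL6.

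Of 19 tested genes commonly cited as STAT3 targets, 8 were higher and 1 lower in EloC KD, beside 42.5% of all genes called, with a median log2 fold change of 0.61. In EloB KD 2 were higher and 3 lower, beside 20.5% of all genes, with a median of 0.03. Counted in either direction, both are near the share over all genes. By direction, 21.3% of all genes were higher and 21.2% lower in EloC KD, where the list leans to higher. In EloB KD 9.34% were higher and 11.2% lower. The list was not tested as a set, and nothing is read from the counts about it. FOS, an AP-1 subunit, rose in both knockdowns (log2 1.82 ± 0.19 in EloB KD and 1.15 ± 0.19 in EloC KD), as did BCL2L1, an inhibitor of apoptosis (0.73 ± 0.12 in EloB KD and 0.88 ± 0.12 in EloC KD). CCND1, which encodes cyclin D1, fell in EloB KD (-0.66 ± 0.08, adjusted p 0.000481 in limma) and rose in EloC KD (0.64 ± 0.08, adjusted p 0.000188). CEBPB rose in EloC KD (0.99 ± 0.14), and HIF1A fell in EloB KD (-0.75 ± 0.14). Of 5 genes that shed or process these receptors, ADAM17, the protease that releases soluble IL-6 receptor, rose in EloC KD (0.78 ± 0.13, adjusted p 0.00103 in limma), and the protease gene FURIN rose in EloB KD (0.54 ± 0.14, adjusted p 0.0221). CCND1 overlaps LTO1 and ADAM17 overlaps IAH1. SOCS3 counts in both lists that hold it.

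**Figure D4:**
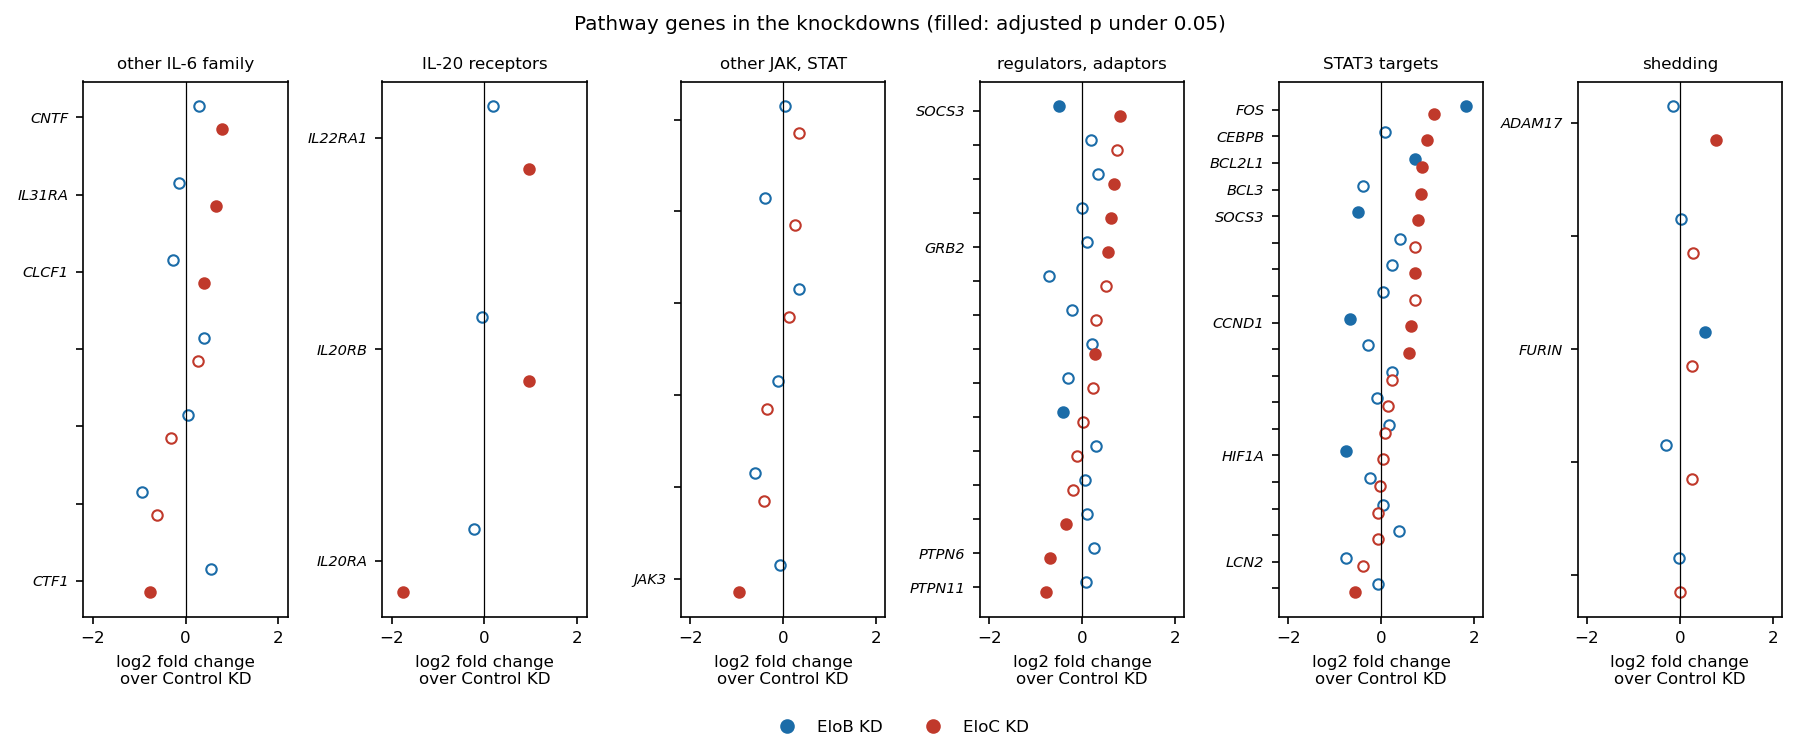
Log2 fold change over Control KD (horizontal axis) of tested genes of the 6 pathway lists (vertical axis, ordered by the change in EloC KD; genes named in the text are labelled, and 1 JAK and STAT gene is not drawn), with EloB KD in blue and EloC KD in red; filled points have an adjusted p under 0.05 in limma. SOCS3 and CCND1 lie on opposite sides of 0 in the 2 knockdowns, and FOS and BCL2L1 are higher in both.

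The genes whose levels over the 9 knockdown libraries were most like a cytokine's were found by the root mean square difference of log2 levels centred on Control KD, among 12247 genes with a mean of at least 50 normalised counts. For IL6 these were TRPV3 (0.35), TNFAIP3 (0.37) and HKDC1 (0.37). For IL24 no gene came as close: SUN3 (0.76), OLFML3 (0.88) and ABCC9 (0.92) were the nearest. SUN3 averaged 6.37 normalised counts in EloB KD, 261 in EloC KD and 7.60 in Control KD, and OLFML3 48.9, 896 and 23.7. Both reached the mean of 50 only through EloC KD, and SUN3 was low in the other groups. LIF had near matches in TRPC4AP, EIF4A1 and DUSP4 (0.05 to 0.06), and IL11 in ETHE1, BRD2 and CHRNA5 (0.11 to 0.12). The measure is a description, with no test.

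In the peptide experiment few of these genes passed the test. IL6 had the largest log2 fold changes of the 9, about -1 with either BC-box peptide, and did not pass in limma without the replicate block. With the WT peptide OSMR fell in limma, 1 of 9 tested genes, where 1.43% of 13105 genes passed. With the Mutant peptide 0 of 9 passed in limma (0.0% of all genes), edgeR (0.0%) and DESeq2 (1.52% of genes with an adjusted p). Between the WT and the Mutant peptide 0 of 9 passed in limma (0.0%), edgeR (0.0%) and DESeq2 (0.798%). At an unadjusted p under 0.05 in limma were 5 of 9 for the WT peptide, beside 1753 of 13105 genes. They were 2 for the Mutant peptide, beside 1142 genes, and 2 between the WT and the Mutant peptide, beside 898. With the replicate block the counts were 6 for the WT peptide (5 lower, 1 higher; 16.2% of all genes), 2 for the Mutant peptide (both lower; 8.3%) and 2 between them (1 higher and 1 lower; 4.09%). The pairing behind the block rests mostly on replicate 2 in this experiment. The libraries of the 2 groups did not overlap for 3 of the 9 genes in the WT against the Scrambled peptide, beside 19.7% of all genes tested. They did not overlap for 2 in the Mutant against the Scrambled peptide, beside 13.7%, and for 3 between the WT and the Mutant peptide, beside 12.1%. The authors' deposited table for the WT against the Scrambled peptide calls 2 of the 9 genes lower, LIF (adjusted p 0.00598) and OSMR (0.00174). For comparison, DESeq2 run here called 4.66% of all genes with an adjusted p, in either direction. ELOB and ELOC had log2 fold changes of at most 0.07 in these comparisons.

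The same markers were read in the peptide experiment. The 5 epithelial markers summed to 23257 to 23682 normalised counts with the WT peptide and 23011 to 27073 with the Mutant peptide. For the Scrambled peptide the sum was 25981 to 28401, so that the WT and Scrambled peptide libraries did not overlap. KRT19 had the most reads of the 5 (155516 over the peptide libraries, with 43610 for KRT18). With the WT peptide KRT19 (log2 -0.30) and KRT8 (-0.07) were lower, whereas KRT18 (0.06), EPCAM (0.06) and CDH1 (0.26) were higher. The 5 fibroblast markers summed to 369 to 638 with the WT peptide and 286 to 602 with the Mutant peptide, with 249 to 396 for the Scrambled peptide, and the groups overlapped. No marker passed in limma without the block. With it 16.2% of all genes passed for the WT and 8.3% for the Mutant peptide. Among the markers COL1A2 was then higher with the WT and the Mutant peptide (log2 1.55 and 1.23) and KRT19 lower with both (-0.30 and -0.18). PECAM1 (-0.43) and KDR (-0.21) were lower with the WT peptide. The other fibroblast markers tested did not pass with the block: PDGFRB had -0.50 and 0.37, and COL1A1 0.15 and 0.04, in the same order. The part of these shifts in the changes below was not tested.

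IL6 was about as low with either BC-box peptide. It had 34.2, 29.8 and 32.6 normalised counts with the WT peptide and 46.9, 21.2 and 29.0 with the Mutant peptide, against 72.0, 51.2 and 67.0 with the Scrambled peptide. All libraries of both BC-box peptides lay below all Scrambled peptide libraries. The log2 fold changes over the Scrambled peptide were -0.94 ± 0.27 for the WT peptide (adjusted p 0.148 in limma, 0.00609 with the replicate block; 0.00609 to 0.425 over 15 alternatives) and -1.01 ± 0.27 for the Mutant peptide (0.276 in limma, 0.00722 with the block; 0.00722 to 0.581 over 16 alternatives). These sizes ranked 37 and 20 from the bottom of 13105 genes. The WT and Mutant peptides differed by 0.06 on the log2 scale, with a 95% interval of -0.55 to 0.68, and that interval leaves room for a difference in either direction. Each value rests on 22 to 72 reads.

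IL11 had 159, 144 and 178 normalised counts with the WT peptide and 141, 117 and 153 with the Mutant peptide, against 237, 166 and 226 with the Scrambled peptide. The Mutant peptide libraries lay below all Scrambled peptide libraries and those of the WT peptide overlapped them. The log2 fold changes were -0.37 ± 0.16 for the WT peptide (adjusted p 0.361 in limma, 0.0225 with the block; 0.0225 to 0.704 over 17 alternatives) and -0.60 ± 0.16 for the Mutant peptide (0.267 in limma, 0.00219 with the block; 0.00219 to 0.581 over 17 alternatives). IL24 had 144, 74.6 and 149 normalised counts with the WT peptide and 138, 90.4 and 188 with the Mutant peptide, against 181, 144 and 207 with the Scrambled peptide. Replicate 2 was the lowest of each group. IL24 was lower with the WT peptide only under the block (log2 -0.58 ± 0.32, adjusted p 0.480 in limma and 0.00725 with the block; 0.00725 to 0.715 over 17 alternatives).

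LIF had 4733, 4811 and 4711 normalised counts with the WT peptide and 5317, 5005 and 5111 with the Mutant peptide, against 5919.7, 5377 and 5304 with the Scrambled peptide. The WT peptide libraries lay below all others. The WT peptide gave a log2 fold change of -0.22 ± 0.05 for LIF (adjusted p 0.0660 in limma, 0.000835 with the block, 0.00356 in DESeq2 and 0.0353 under quantile scaling; 0.000835 to 0.229 over 17 alternatives).

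OSMR was the receptor chain with the clearest shift. It had 2364, 2359 and 2249 normalised counts with the WT peptide and 2617, 2546 and 2496 with the Mutant peptide, against 2746, 2779.7 and 2609 with the Scrambled peptide. The WT peptide libraries lay below all others, and the Mutant and Scrambled peptide libraries overlapped. OSMR was 1.17-fold lower with the WT peptide than with the Scrambled peptide (log2 -0.22 ± 0.04, adjusted p 0.0435 in limma). Leaving out any 1 of Scrambled peptide replicates 1 and 2 or WT peptide replicates 1, 2 and 3 raised that adjusted p to between 0.0844 and 0.189, and it was 0.0831 without the replicate 2 libraries of all groups. OSMR was also lower with the WT than with the Mutant peptide under the block (log2 -0.14 ± 0.04, adjusted p 0.597 in limma and 0.0383 with the block; 0.0383 to 0.9996 over 17 alternatives).

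LIFR had 3640.1, 3109.9 and 3894 normalised counts with the WT peptide and 3160.1, 3005 and 3447 with the Mutant peptide, against 3154, 2761 and 3273 with the Scrambled peptide. Within each replicate number the WT peptide library was the highest of the 3. Under the block LIFR was higher with the WT peptide than with the Scrambled peptide (log2 0.21 ± 0.09, adjusted p 0.372 in limma and 0.00145 with the block; 0.00145 to 0.740 over 17 alternatives) and than with the Mutant peptide (0.14 ± 0.09, 0.849 in limma and 0.0432 with the block; 0.0432 to 0.9996 over 17 alternatives). IL6ST, IL6R and JAK1 passed in none of the 3 peptide comparisons, with or without the block. Their log2 fold changes for the WT over the Scrambled peptide had 95% intervals of -0.22 to 0.18 for IL6ST, -0.14 to 0.32 for IL6R and -0.16 to 0.09 for JAK1.

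Of the pathway lists, the WT peptide changed 1 gene in limma, BCL2L1, which fell by 0.32 ± 0.05 on the log2 scale (adjusted p 0.0161), and the Mutant peptide changed 0. With the replicate block 8 of the 19 STAT3 target genes were lower with the WT peptide and 10 with the Mutant peptide, and none was higher, where 8.23% and 4.59% of all 13105 genes were lower in these fits. BCL3 had a log2 fold change of -0.29 ± 0.06 with the WT peptide and -0.44 ± 0.06 with the Mutant peptide (adjusted p 0.0534 and 0.0739 in limma, 0.00455 and 0.000545 with the block). LCN2, which encodes lipocalin-2, had -1.58 ± 0.34 and -1.16 ± 0.34 in the same order (0.0582 and 0.317 in limma, 0.000466 and 0.00795 with the block). The JAK and STAT list had 4 of 7 tested genes lower with the WT peptide under the block, beside the same 8.23%. STAT3 had no read in any of the 9 peptide libraries.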

How the data were processed

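The 18 libraries of PC3 RNA were read against build hg38; featureCounts and DESeq2 are the tools that the submitters' processing notes name, without versions; the aligner, the annotation and the strand setting are not given in the sources used here. The signal that the authors deposited is a normalised count per gene and library, with 1 table for the knockdown and 1 for the peptide experiment. The authors also deposited 4 comparisons with log2 fold changes and adjusted p-values. In both deposited comparisons with Control KD some cells hold error text, so those log2 values were read as text; all were set beside the calls and entered no test. Of the deposited tables, 0 columns of samples were left unused. Dividing by each library's step gave whole reads (100% of values within 0.05 reads), and no 2 libraries were identical.

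limma 3.58.1 (R 4.3.3) with an intensity trend was fitted to log2(normalised count + 1) of genes whose mean over an experiment's 9 libraries reached 10, with 1 spread for its 3 groups. Two-sided p-values were adjusted over every tested gene by Benjamini-Hochberg and called under 0.05; errors of fold changes are standard errors. With 3 libraries a group, the smallest p of an exact permutation test is 0.1. The fits were tested on simulated data. The alternatives changed the scaling (TMM, quantile), the pseudocount or the filter, fitted 6 libraries or a replicate block, left out each library, or used the recovered reads in edgeR 4.0.16 (quasi-likelihood) or DESeq2 1.42.0; leaving out the replicate 2 libraries of all peptide groups was chosen after seeing the data. Reads carry no molecular identifiers, so read floors cover counting error only.

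Same-number libraries deviated together from their group means (correlations across genes: knockdown 0.236 to 0.566, against -0.439 to 0.0703 for other pairs; peptide 0.254 to 0.715, against -0.546 to 0.336). The numbers were therefore taken to pair the samples, a pairing that comes from the data and not from the labels, and blocked values stand beside results whose call they change. In the peptide experiment the pairing rests mostly on replicate 2, whose libraries correlated at 0.697 to 0.715. Pairing of replicates 1 and 3 is less sure: Scrambled 1 with WT 1 gave 0.254, below Scrambled 3 with WT 1 at 0.336. Peptide results that pass only with the block depend on this pairing.

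The 10 genes, the 6 pathway lists and the marker lists were chosen with earlier results of these data known. Named in the text are the 10 genes, ELOB and ELOC, per list and comparison the 4 genes with the smallest adjusted p, list genes by detection, the neighbours of STAT3 and the 3 nearest profiles of each cytokine. Gene positions come from GENCODE (GRCh38). LIF had no promoter entry. Some list genes are not reported here.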

Additional observations from a re-analysis of the deposited data

Results flagged for a closer look

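The effect of EloB KD over Control KD differed from that of EloC KD for 6 of the 9 genes, beside 46.1% of all genes tested. This was tested by the direct comparison of EloB KD with EloC KD in limma. The difference of the 2 effects on the log2 scale was -2.86 for IL6, -5.08 for IL24, -1.35 for IL6R, -1.35 for IL6ST, -1.42 for LIFR and -0.48 for OSMR, all lower in EloB KD. LIFR passed the test in opposite directions in the 2 knockdowns, and OSMR, taken against Control KD, passed in EloB KD (adjusted p 0.0463 in limma) and did not in EloC KD (0.138).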

How the results depend on the processing

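Of 884 values of single genes under the alternatives, 833 kept their direction and side of the threshold where called, 24 passed only under the alternative and 27 no longer passed; no called gene changed sign, and 23 values that were not called did. For EloB KD against Control KD, 3 genes were called, 1 under quantile scaling, 5 with the replicate block and 1 to 3 with a library left out; leaving out Control KD replicate 1, Control KD replicate 2 or EloB KD replicate 3 gave 1. Over all 13764 genes, the calls for EloB KD against Control KD numbered 2822. They were 2707 under quantile scaling, 4996 with the replicate block and 1915 to 2373 with a library left out. EloC KD gave 5 to 6 and EloB KD against EloC KD 6 to 7 with a library left out. Calls over all genes then went from 5844 to between 4506 and 5413 for EloC KD against Control KD. Between the knockdowns they went from 6343 to between 5170 and 5626. For the WT against the Scrambled peptide, 1 gene was called, 2 under quantile scaling and in DESeq2, 0 with no filter, with only the 6 libraries compared and without the replicate 2 libraries of all groups, 6 with the replicate block, and 0 to 1 with a library left out. Calls over all 13105 genes were 188, with 208 under quantile scaling, 552 in DESeq2 and 138 with only the 6 libraries compared. They were 258 without the replicate 2 libraries, 2122 with the block and 66 to 180 with a library left out. With no filter 172 of 17320 genes were called. For the Mutant against the Scrambled peptide and the WT against the Mutant peptide the counts were 0, 2 each with the replicate block, and 0 with any library left out. Of all genes the block called 8.3% and 4.09% in the same order, and with a library left out at most 1 gene was called. The cause of these shifts was not tested. IL6 rested on 13 to 72 reads per library outside EloC KD, which limits its precision.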
